A study of Mus musculus with 30 samples.

Results

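The 5 genes of the netrin-G system were followed in the spinal cord of mice recovering from a cortical stroke. They are the cues Ntng1 and Ntng2 and the receptors Lrrc4, Lrrc4b and Lrrc4c, and they were found by symbol, 5 of 16995 genes with values. Ntng2 was included because the study took it, on these same animals, as a growth-promoting candidate upregulated at 28 days post injury (dpi). The 28 dpi value of Ntng2 is therefore described below without a test, and so is every comparison of Ntng2 that uses the 28 dpi animals. The sham values of Ntng2 took part in that choice, so its tests against sham at other time points are not independent of the choice. The other 4 genes were added for their kinship or binding to it.

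Adult C57BL/6 mice, all females by the study's methods, received a photothrombotic stroke of the right sensorimotor cortex, in which light clots the cortical vessels after injection of the dye Rose Bengal. The RNA came from the intermediate laminae of spinal level C5/C6 on the side that lost its corticospinal input. Animals were taken at 4 dpi (n = 4), 7 dpi (n = 5), 14 dpi (n = 5), 28 dpi (n = 5) and 42 dpi (n = 5), and 5 animals had a sham operation in which the skull was not illuminated. No animal carried a transgene. The sequenced animals were selected by the study on lesion, motor deficit, dissection and RNA quality, and a 4 dpi animal that the labels list beside the 29 (A9-3) has no values here. The time since the sham operation is not in the labels, so time after surgery and stroke cannot be told apart. Values are the authors' edgeR-normalized CPM values, which are counts scaled to the library, rounded to 0.1. The depth of the libraries is unknown, so the errors given are those between animals.

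Netrin-Gs are relatives of the secreted netrins that do not diffuse. A glycosylphosphatidylinositol anchor holds them on the axon surface, where they bind netrin-G ligands (NGLs) on the dendrite of the partner cell. NGL-1 (Lrrc4c) binds netrin-G1 (Ntng1), NGL-2 (Lrrc4) binds netrin-G2 (Ntng2), and NGL-3 (Lrrc4b) binds the receptor tyrosine phosphatase LAR (Ptprf) and its relatives instead. The NGLs carry leucine-rich repeats and an immunoglobulin domain outside the cell and end in a short tail that binds the postsynaptic scaffold PSD-95 (Dlg4).

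In mm10, Ntng1 lies on the minus strand at chr3:109780040-110144011, Ntng2 on the minus strand at chr2:29194541-29253005, Lrrc4 on the minus strand at chr6:28661831-28831747, Lrrc4b on the plus strand at chr7:44429018-44463351 and Lrrc4c on the plus strand at chr2:96318169-97631666. Lrrc4c spans 1313.5 kb, against 34.3 kb for Lrrc4b. The last 30 coding bases before the stop codon of the longest coding transcript of each gene (GENCODE M21, 5′ to 3′) are shown because they hold the part in which cues and receptors differ, the membrane anchor signal of the former and the scaffold-binding tail of the latter. Capitals mark the last 4 codons.
Ntng1: ctgctggggactgccggtCCCCTGGTGTTC
Ntng2: ctgctcgggctggccgccCGTCTGGCCTGC
Lrrc4: accaaggacaaggtacagGAAACTCAAATA
Lrrc4b: tccaaggagaacgtgcaaGAGACACAAATC
Lrrc4c: tctaaagacaatgtacaaGAGACTCAGATA
The 3 receptors differed from each other in 2 to 3 of their last 4 codons, and 0 of these differing codons encode another amino acid, so the PSD-95 binding tail is spelled differently but is the same. The last codons of the 2 cues differed in 3 of 4, and all 3 encode another amino acid. Over the aligned coding sequence, 68.5% of the bases were identical between Ntng1 and Ntng2, and 67.7% to 68.6% between pairs of receptors.

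The 5 genes shared 0 words of 31 bases with each other on either strand, so a read of that length or longer without errors can be given to 1 of them. Ntng2 did share sequence with a neighbour. The noncoding gene 6530402F18Rik overlaps its exons on the same strand (chr2:29245107-29253006) and held 469 of the 4152 words of Ntng2 (11.3%). Lrrc4 lies inside Snd1, a gene on the opposite strand.

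All 5 genes were measured in all 29 animals. Because a long transcript gives more reads, the genes were ordered by CPM per kb of exon. In the sham animals Lrrc4b was highest at 42.1 ± 2.67 (SD, n = 5), followed by Lrrc4c at 11.3 ± 0.430, Lrrc4 at 6.99 ± 0.0943, Ntng1 at 3.22 ± 0.226 and Ntng2 at 1.86 ± 0.116. Each receptor was therefore higher in RNA per kb than either cue, with 22.6 times as much Lrrc4b as Ntng2. These are RNA levels of the dissected tissue, which leave out cells whose bodies lie elsewhere. Amounts of cue and receptor protein were not measured. Counted per kb of the longest transcript instead of all exons, the order was the same and Lrrc4b was 11.9 times Ntng2.

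Neighbours in this order were separated by more than their SDs in the sham animals. Lrrc4b was 3.73 times Lrrc4c per kb of exon, Lrrc4c 1.62 times Lrrc4, Lrrc4 2.17 times Ntng1 and Ntng1 1.73 times Ntng2. The levels of the cues were closer at 28 dpi, through the Ntng2 values that chose the gene. There Ntng1 was still the higher per kb of exon, at 3.73 ± 0.278 (SD, n = 5) against 3.29 ± 0.687 for Ntng2, which is within 1 SD, while per kb of the longest transcript Ntng2 was the higher at 6.71 ± 1.40 against 5.50 ± 0.410.

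**Figure D1:**
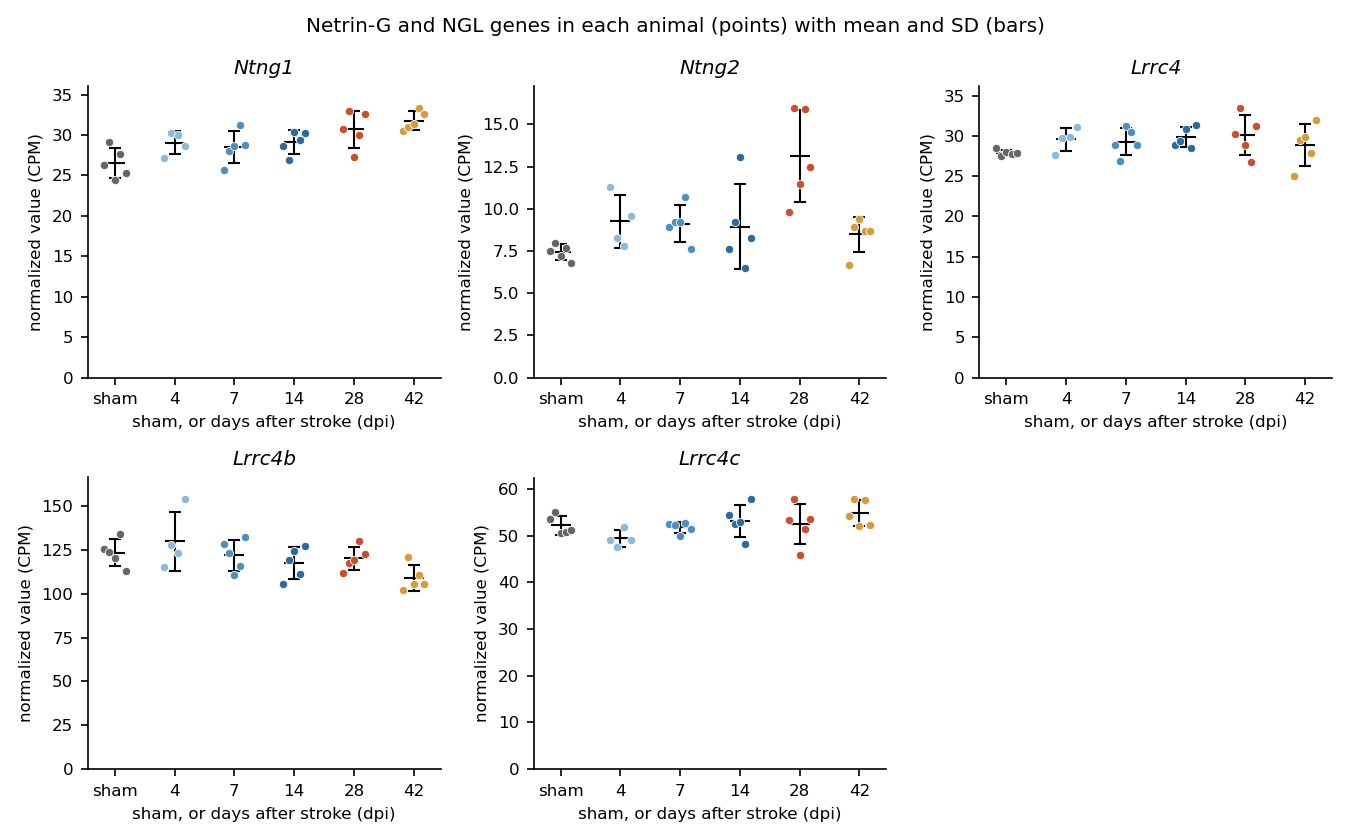
Normalized value (CPM, linear axis from 0) of each gene in each animal (points) by group, with the group mean and SD (black bars; n = 4 at 4 dpi, n = 5 elsewhere). Ntng2 stands out by its 28 dpi group, at 9.8 to 16 against 6.8 to 8.0 in sham animals, while each of the other genes stayed within a range of about 1.5-fold or less over all 29 animals.

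Ntng2, the cue anchored on axons that contact NGL-2, was low and steady in sham animals and higher in all animals at 28 dpi. Its values were 7.5, 8.0, 7.2, 7.7 and 6.8 CPM in the 5 sham animals, a mean of 7.44 ± 0.462 (SD, n = 5). At 28 dpi they were 9.8, 16, 11.5, 15.9 and 12.5, a mean of 13.1 ± 2.74. The 2 groups did not overlap, and the log2 fold change (of value + 0.5, as everywhere below) was 0.76, a fold of 1.69. This difference is the one that made Ntng2 a candidate. Every 28 dpi animal was above every sham animal for 6.15% of all genes, and 4.64% of genes were called and also differed more than 1.5-fold, in either direction (called means an adjusted p under 0.05). The latter were 789 genes, and 413 without the 28 dpi animal A3-3 or 1142 without A3-1. Nothing about Ntng2 is read from these shares.

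The 28 dpi animals also held the most variable Ntng2 values beside those at 14 dpi. The coefficient of variation was 20.9% at 28 dpi and 28.3% at 14 dpi, against 6.20% in sham animals. At 14 dpi the values were 7.6, 9.2, 13.1, 6.5 and 8.3, so that 1 animal reached the 28 dpi range and another fell below the sham range.

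At the earlier time points Ntng2 lay between sham and 28 dpi. The values at 4 dpi were 11.3, 8.3, 7.8 and 9.6, with 3 of 4 animals above the sham range. At 7 dpi they were 8.9, 9.2, 9.2, 10.7 and 7.6, with 4 of 5 above it. These differences were not called. The log2 fold change was 0.28 ± 0.151 (SE) at 4 dpi, 0.27 ± 0.142 at 7 dpi and 0.21 ± 0.142 at 14 dpi (limma, Benjamini-Hochberg adjusted over all genes, adjusted p = 1.0, 0.871 and 0.546). Their 95% confidence intervals reached from -0.02 to 0.59 at 4 dpi, from -0.02 to 0.56 at 7 dpi and from -0.08 to 0.50 at 14 dpi, so rises up to the upper bounds remained compatible with these values. Without the 14 dpi animal A5-4, the 14 dpi difference was 0.07. Few genes were called at all then, 0.106% at 4 dpi, 0.0294% at 7 dpi and 0.00588% at 14 dpi.

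Ntng2 was lower again at 42 dpi, with 6.7, 8.9, 9.4, 8.7 and 8.7 CPM, a mean of 8.48 ± 1.04 (SD, n = 5). The 42 dpi animals did not overlap with the 28 dpi animals, since the highest of the former (9.4) was below the lowest of the latter (9.8). The log2 difference was 0.54 from 14 to 28 dpi and -0.59 from 28 to 42 dpi, given without a test. Against sham, 42 dpi differed by 0.17 ± 0.142 (SE), which was not called (limma, adjusted p = 0.617). Here 4 of 5 animals exceeded the sham range and 1 lay below it.

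The overlapping gene 6530402F18Rik was at 9.54 ± 1.24 CPM (SD, n = 5) in sham animals and 11.5 ± 2.06 at 28 dpi. Its log2 fold change of 0.25 was not called (limma, adjusted p = 0.173), and 3 of 5 animals were above the sham range. From 14 dpi, where it was at 8.54 ± 1.59 CPM, to 28 dpi its log2 value rose by 0.41 (limma, adjusted p = 0.0151). Over the 29 animals its log2 values correlated with those of Ntng2 with Pearson's r of 0.615, and of 0.659 after group means were subtracted. How many reads of the shared stretch were counted for either gene was not tested.

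Residual ribosomal RNA was more uneven between animals in every stroke group than in the sham group. The 18S gene Rn18s-rs5 ranged from 30321 to 52929 CPM in sham animals, and its coefficient of variation of 23.3% there compared with 51.5% to 121% in the stroke groups. It ranged from 18295 to 114026 for the 4 dpi animals and 36202 to 116302 for 7 dpi. Its range was 32754 to 817780 for the 14 dpi group, 44755 to 779160 for 28 dpi and 78737 to 457302 for 42 dpi. The 28 dpi animal with the lowest 18S value, A4-1, had 11.5 CPM of Ntng2 and 44755 of Rn18s-rs5, inside the sham range of the latter. Its Ntng2 value is among those that chose the gene, so nothing about ribosomal RNA is read from it. With Rn18s-rs5 as a covariate, 0 genes were called at 28 dpi versus sham, in place of 4230. Over the 29 animals the log2 values of Rn18s-rs5 had an r of 0.314 with those of Ntng2 (-0.02 after group means were subtracted) and of 0.473 with those of Ntng1 (0.0927). The part of ribosomal RNA in the values of both cues was not tested.

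**Figure D2:**
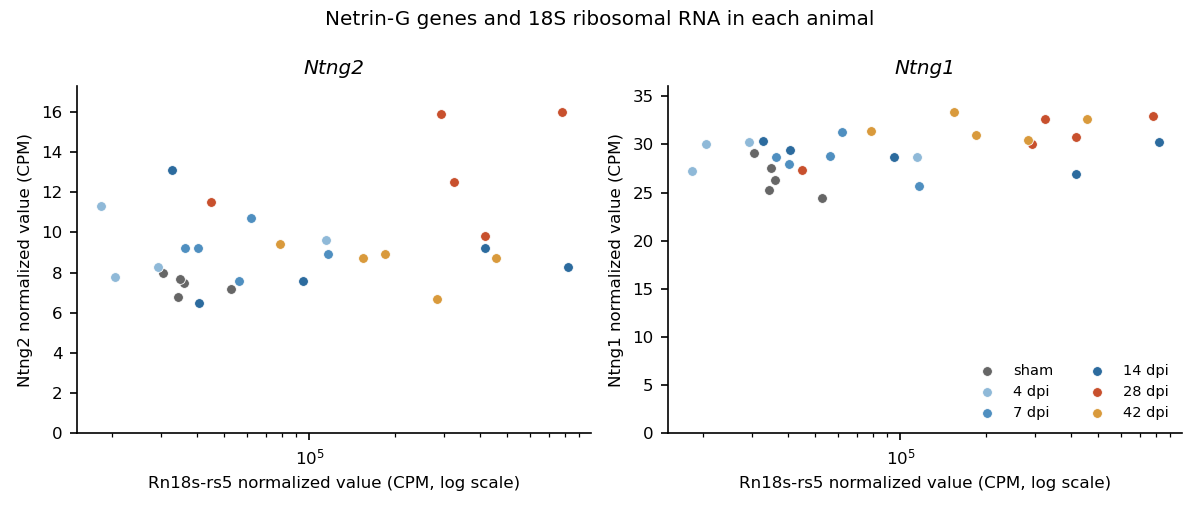
Ntng2 (left) and Ntng1 (right) normalized value (CPM) against that of the 18S ribosomal RNA gene Rn18s-rs5 (CPM, log axis), 1 point per animal, coloured by group. The 28 dpi animal at 44755 CPM of Rn18s-rs5 had 11.5 CPM of Ntng2 and 27.3 CPM of Ntng1. Its Ntng2 value is among those that chose the gene, and its Ntng1 value is inside the sham range of 24.4 to 29.1.

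Ntng1, the paralogue that binds NGL-1, was higher than in sham animals at 28 dpi, by less than the Ntng2 difference that chose that gene. The sham animals had 26.3, 29.1, 24.4, 27.6 and 25.3 CPM, a mean of 26.5 ± 1.86 (SD, n = 5). At 28 dpi the values were 30.8, 33.0, 27.3, 30 and 32.6, a mean of 30.7 ± 2.29, and 4 of 5 animals were above the sham range. The log2 fold change was 0.21 ± 0.0620 (SE), a fold of 1.15 (limma, adjusted p = 0.0165). It was the 1 call among the 4 genes whose 28 dpi difference was tested, where 24.9% of all genes were called and 11.9% were called as higher. The call was lost without the sham animal A12-1 (0.18, adjusted p = 0.0619), without the 28 dpi animal A3-3 (0.18, adjusted p = 0.0590), and with 18S ribosomal RNA as a covariate (0.19, adjusted p = 0.161). It was also lost after correction for transcript length and GC content (0.14, limma, adjusted p = 0.0562) and with just the 2 groups in the fit (0.21, adjusted p = 0.0779). Without the 8 animals above 200000 CPM of Rn18s-rs5, which leaves 1 animal at 28 dpi (A4-1, at 27.3 CPM), the difference was 0.04, a value of that animal and no test.

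A scale that counts ribosomal RNA in moved all genes at 28 dpi. With equal column sums for all animals, ribosomal RNA counted in, the median of all genes at 28 dpi shifted by -0.73 on the log2 scale. Ntng1 was then at -0.57, called as lower (limma, adjusted p = 0.0469), and Ntng2 at 0.0089. Relative to that median, Ntng1 was higher by 0.16 and Ntng2 by 0.73.

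At 42 dpi Ntng1 was 30.5, 31, 31.4, 33.4 and 32.6 CPM, and all 5 animals were above all sham animals, as they were for 2.21% of all genes. The log2 fold change of 0.26 ± 0.0620 (SE) was larger than at 28 dpi but was not called (limma, adjusted p = 0.0821), in a comparison in which 0.0235% of genes were called. Its 95% confidence interval ran from 0.13 to 0.38. It was called with the unit number of the labels as a random block (0.26, limma, adjusted p = 0.0418). That fit called 83 genes at 42 dpi, against 4 in the main fit. Nearly all units lie within a single group, so unit and group can hardly be told apart and nothing is read from this call. The difference from sham was 0.13 at 4 dpi, 0.10 at 7 dpi and 0.13 at 14 dpi, none of which was called (limma, adjusted p = 0.978, 0.884 and 0.412).

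None of the receptors was called against sham at any time point in the main fit. With the same sum in every animal, Lrrc4, Lrrc4b and Lrrc4c were called as lower at 28 dpi (limma, adjusted p = 0.0192, 0.00489 and 0.00702). On that scale 11251 genes were called at 28 dpi and the median of all genes was at -0.73. Lrrc4 (NGL-2), the partner of Ntng2, had a very narrow sham range of 27.5 to 28.5 CPM. Its group means lay between 28.9 at 42 dpi and 30.1 at 28 dpi. The 28 dpi values were 30.2, 33.5, 28.8, 26.8 and 31.2, so that 4 animals were above the sham range and 1 below it. The log2 fold change of Lrrc4 at 28 dpi was 0.10 with a 95% confidence interval from -0.03 to 0.23 (limma, adjusted p = 0.231), and the other time points were between 0.04 and 0.09.

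Lrrc4c (NGL-1), the partner of Ntng1, was at 50.6 to 55.0 CPM in sham animals and 45.9 to 57.8 at 28 dpi, with overlapping groups. Its log2 fold change was 0.00 at 28 dpi, with a 95% confidence interval from -0.11 to 0.12 (limma, adjusted p = 0.976). It ranged from -0.08 at 4 dpi to 0.07 at 42 dpi over the 5 time points, and no difference was called.

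Lrrc4b (NGL-3), the receptor that binds LAR, was the member with the lowest value relative to sham, at 42 dpi. The sham animals had 125.6, 124.1, 120.2, 134.3 and 112.9 CPM and the 42 dpi animals 102.4, 120.7, 105.4, 110.7 and 105.6, with 4 of 5 below the sham range. The log2 difference was -0.18 ± 0.0701 (SE), which was not called (limma, adjusted p = 0.220). After correction for transcript length and GC content it was -0.06, and with the same sum of values in every animal -0.73. At 28 dpi it was -0.04, with a 95% confidence interval from -0.18 to 0.11.

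**Figure D3:**
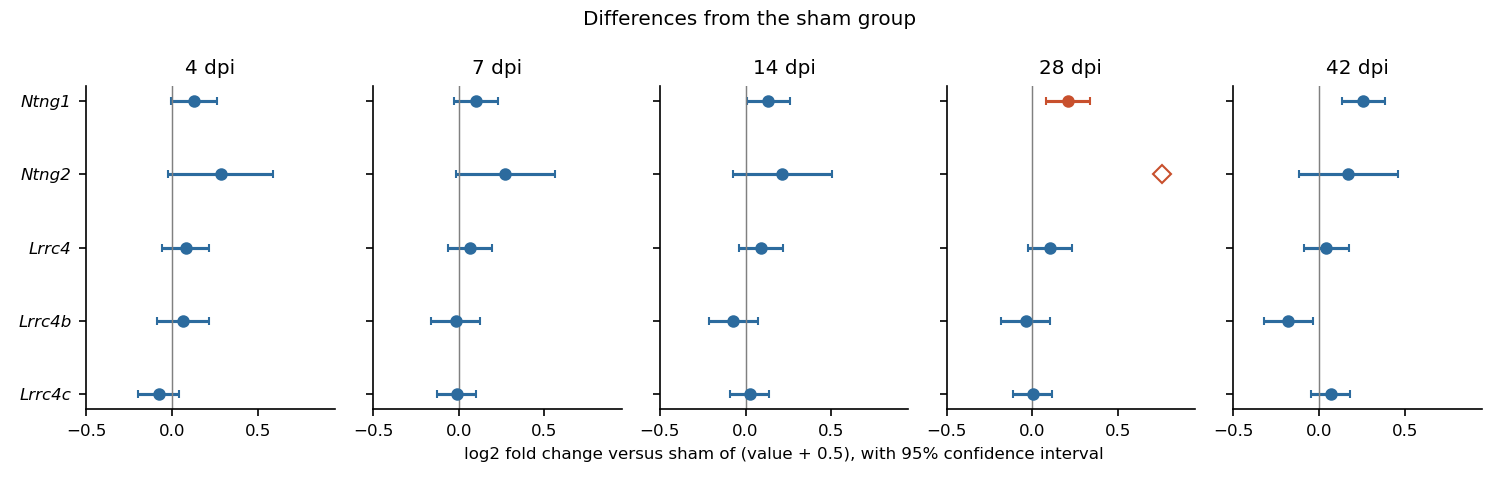
Log2 fold change of value + 0.5 versus the 5 sham animals (horizontal axis) for each gene at each time point, with 95% confidence intervals from limma. Orange marks the called difference, Ntng1 at 28 dpi (0.21), and the open diamond marks Ntng2 at 28 dpi (0.76), shown without an interval because that value chose the gene. All 5 panels share the sham animals.

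Between time points, none of the tested differences of the 5 genes was called. From 14 to 28 dpi, where 43% of all genes were called, Ntng1 differed by 0.07 (limma, adjusted p = 0.346) and the receptors differed by -0.02 to 0.03. From 28 to 42 dpi (1.94% of genes called, 330 genes, and 1 to 1278 when an animal was left out, the fewest without A3-3 and the most without A3-1) Lrrc4b differed by -0.14 (adjusted p = 0.242). From 14 to 42 dpi (14% called, 2375 genes, and 812 to 2651 when an animal was left out, the fewest without A5-4) the largest difference was that of Ntng1, 0.12 (limma, adjusted p = 0.167). From 4 to 14 dpi (0.0177% called, 3 genes, and 1 to 24 when an animal was left out, the most without A10-1) it was that of Lrrc4b, -0.14 (adjusted p = 0.532).

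Ratios within an animal depend little on how that animal was scaled, apart from the 0.5 added to each value, and they show whether cue and partner differed by unequal amounts. The log2 ratio of Ntng2 to its paralogue Ntng1 was -1.77 ± 0.0503 (SD, n = 5) in sham animals. At 28 dpi it was -1.60, -1.02, -1.21, -0.90 and -1.35, higher by 0.55 and above the sham range in 5 of 5 animals. At 42 dpi it was -1.85 ± 0.161, with 3 of 5 animals below the sham range and 1 above it, a difference of -0.09 that did not pass the test (two-sided exact permutation p = 0.317, adjusted p = 0.394). The ratio of Ntng2 to its receptor Lrrc4 was 0.66 higher at 28 dpi than in sham animals, again in 5 of 5 animals. Both 28 dpi ratios rest on the Ntng2 values that chose the gene and were not tested.

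Of the tested ratios, that of Ntng1 to its receptor Lrrc4c was the most separated from sham. It was -0.96 ± 0.0742 in sham animals and -0.76 ± 0.0359 at 28 dpi (SD, n = 5), higher by 0.20 in 5 of 5 animals. The two-sided exact permutation test gave p = 0.00794, the smallest that 5 against 5 animals allow, and 0.0688 after adjustment over the 13 ratio tests. At 4 dpi the ratio was higher by 0.21 in 4 of 4 animals (exact p = 0.0159, the smallest that 4 against 5 animals allow) and at 42 dpi by 0.19, where 4 of 5 animals exceeded the sham range (exact p = 0.0159). Both also had an adjusted p of 0.0688. At 7 and 14 dpi the ratio was higher by 0.11, in 3 and 2 of 5 animals beyond the sham range (exact permutation p = 0.0952, adjusted p = 0.155 at each). None of the 13 passed after adjustment.

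The ratio of Ntng2 to Lrrc4 was higher by 0.21 at 7 dpi, where 4 of 5 animals exceeded the sham range (exact permutation p = 0.0317, adjusted p = 0.103). At 42 dpi it was higher by 0.13 (exact permutation p = 0.0714, adjusted p = 0.155). The 7 dpi ratio of Ntng2 to Ntng1 was higher by 0.17, with 4 animals above the sham range and 1 below it (exact permutation p = 0.0556, adjusted p = 0.144). Without the 7 dpi animal A8-3 the 7 dpi ratios of Ntng2 to Lrrc4 and to Ntng1 were higher by 0.26 and 0.23. Each then had an adjusted p of 0.0413 in the exact permutation test. In 9 of 10 removals of an animal neither ratio passed, with adjusted p up to 0.206 and 0.248. These tests also use the sham values that took part in choosing Ntng2.

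**Figure D4:**
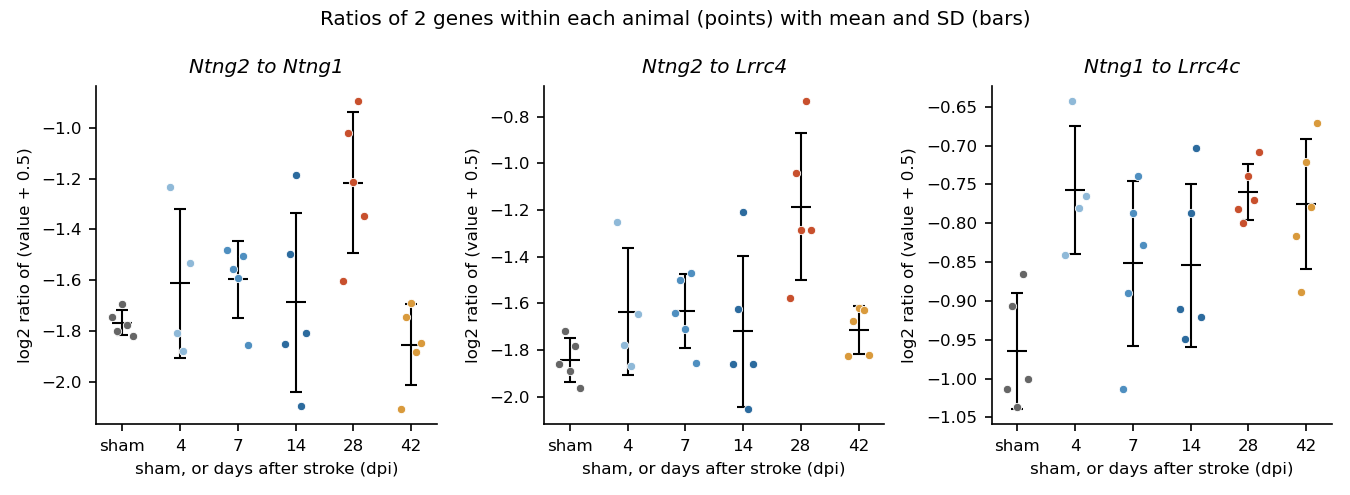
Log2 ratio of (value + 0.5) of 2 genes within each animal (points), by group, with the mean and SD (black bars; n = 4 at 4 dpi, n = 5 elsewhere; the vertical axes differ and do not start at 0). The 28 dpi group is above the sham range in 5 of 5 animals in all 3 panels, by 0.55, 0.66 and 0.20 on average.

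The 5 genes were not among the nearest genes of each other over the 29 animals, which share 6 groups and 1 table. Pearson's r of the log2 values was 0.378 for Ntng1 and Ntng2. In likeness to Lrrc4, Ntng1 (0.422) was at rank 150 and Ntng2 (0.391) at rank 257 of 15497 genes, and in likeness to Lrrc4c, Ntng1 (0.449) was at rank 340. In the order of likeness to Ntng2, 5 genes came first. They were Itga3 (r = 0.820), an integrin subunit that binds laminin, Btbd11 (0.805), Lgr6 (0.803), a receptor for R-spondins, Kcng1 (0.774), a modifying subunit of voltage-gated potassium channels, and Abhd2 (0.757). After group means were subtracted, these r values were 0.639 to 0.756. The 28 dpi values that chose Ntng2 are part of this likeness, so a high 28 dpi mean of these genes is no separate result. Itga3 had a mean of 28.6 CPM in sham animals and 37.1 at 28 dpi, and Kcng1 went from 4.86 to 7.58.

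The genes nearest to the other members were different ones. For Ntng1 they included Rora (0.719), a nuclear receptor, and Osbp (0.704). For Lrrc4 they were Lrrc27, Tram2 and Zswim4 (0.608 to 0.670), for Lrrc4b Atp13a2 (0.813), a lysosomal polyamine transporter, Slc27a1 and Gm15725, and for Lrrc4c Sgcz, Gm38393 and Gria4 (0.643 to 0.655). Gria4 encodes an AMPA receptor subunit. Lrrc4c also followed Rn18s-rs5 (r = 0.565, 0.525 within groups).

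Of the molecules that work with NGLs, 2 receptor phosphatases were called at 28 dpi, a share near that of all genes. Of 8 partners, which are 3 receptor phosphatases of the LAR family, 4 PSD-95 family scaffolds and whirlin (Whrn), 2 rose, 0 fell and 6 did not pass the test, in a comparison in which 24.9% of all genes were called and 11.9% were called as higher. The count is therefore no result about these partners. Ptprf, the LAR phosphatase bound by Lrrc4b, was at 37.1 to 53.0 CPM (median 50.1) in sham animals and 52.4 to 69.1 (median 57.9) at 28 dpi, where 4 of 5 animals exceeded the sham range. Its log2 fold change was 0.30 ± 0.0953 (SE; limma, adjusted p = 0.0238). Ptprs, its relative, rose by 0.18 ± 0.0623 (adjusted p = 0.0354). The third relative, Ptprd, differed by 0.08 (adjusted p = 0.469) and Dlg4, the PSD-95 scaffold that holds the NGL tail, by 0.04 (adjusted p = 0.651). The median of the 8 was 0.09, against -0.00 over all genes.

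Of the secreted netrins and their receptors, 9 of 11 had values, and Ntn3 and Ntn5 were not analysed here. Dscam (0.42, limma, adjusted p = 0.00348) and Unc5a (0.28, adjusted p = 0.0253), both netrin receptors, rose at 28 dpi, 0 fell and 7 did not pass, again a share near the 24.9% of all genes. The median of the 9 was 0.19. The netrin Ntn1 itself was among those that did not pass.

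Other families of synaptic organizers were set beside the NGLs. Among 18 leucine-rich-repeat organizers, 2 rose at 28 dpi, Flrt1 (0.46, limma, adjusted p = 0.00664) and Lrfn3 (0.37, adjusted p = 0.0191), 0 fell and 16 did not pass, with a median of 0.05. This is fewer calls than the 24.9% of all genes and near the 11.9% called as higher. Of the 6 neurexins and neuroligins, which form the best known bridge across the synaptic cleft, 4 rose and 2 did not pass, a larger share than over all genes that was not tested as a list. These were Nlgn2 (0.47, adjusted p = 0.00996), a neuroligin of inhibitory synapses, Nrxn3 (0.37, adjusted p = 0.0114), Nrxn2 (0.35, adjusted p = 0.00321) and Nlgn3 (0.26, adjusted p = 0.0252). Their median was 0.30.

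In all, 10 of these 41 genes were called as higher at 28 dpi and 0 as lower, where 24.9% of all genes were called and 11.9% as higher. When every animal was given the same sum of values, a scale on which the median of all genes was at -0.73, all 10 were below 0 and 0.12 to 0.41 above that median. At 4, 7, 14 and 42 dpi 0 of 41 were called against sham, in comparisons with few calls over all genes. With Rn18s-rs5 as a covariate 0 of the 10 remained called, although all 10 kept their sign, and without the 8 animals above 200000 CPM of Rn18s-rs5 all 10 also kept their sign and 0 were called, with 1 animal left at 28 dpi and a spread taken from the other groups, so that a call could hardly be made. After correction for transcript length and GC content 9 were called as higher, 7 of them among the 10, and 3 as lower, and with the unit number as a random block 11 as higher and 1 as lower. The part of ribosomal RNA in these differences was not tested further. Leaving out the sham animal A12-1 left 4 calls, leaving out the 28 dpi animals A3-3 or A4-4 left 6 or 5, and a fit of the 2 groups alone left 5.

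**Figure D5:**
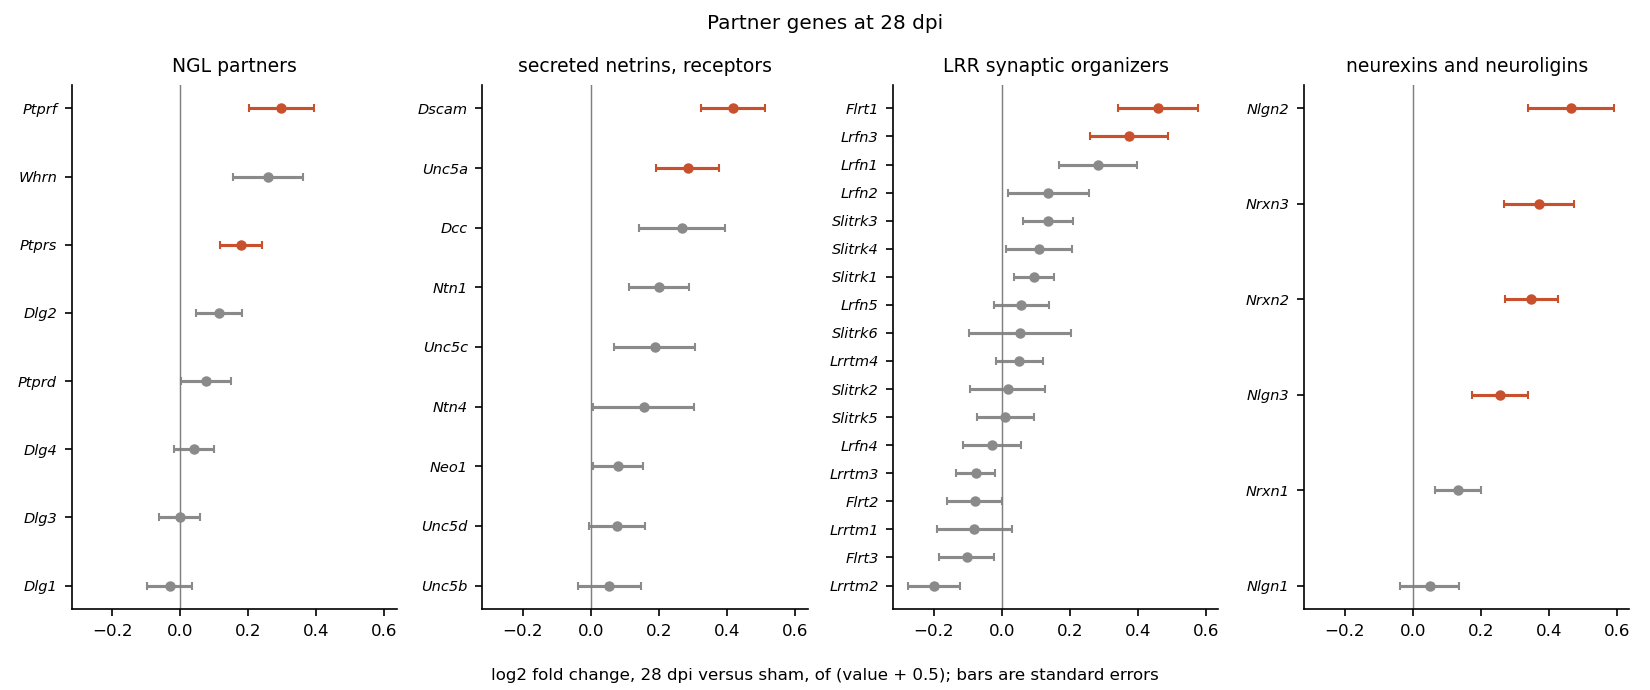
Log2 fold change of value + 0.5 at 28 dpi versus sham (horizontal axis, n = 5 in each group) for the partner genes of the netrin-G system and for related synaptic organizers, with standard errors from limma. Orange points passed an adjusted p under 0.05 and grey points did not. The 10 orange points are all above 0, from 0.18 for Ptprs to 0.47 for Nlgn2, and all 10 turn below 0 when every animal is given the same sum of values, a scale that shifts the median of all genes by -0.73 and on which they stay 0.12 to 0.41 above that median.

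The study took 3 further genes with Ntng2 to a neurite assay, chosen on these animals, so their values are no separate evidence. Their 28 dpi differences are therefore given without a test, as for Ntng2. Sema6a, a transmembrane semaphorin, differed from sham by 0.59, at 41 to 59.9 CPM against 27.5 to 37.1. Gdf7, a bone morphogenetic protein family ligand, differed by 1.89, at 1.9 to 22.9 CPM against 1.6 to 3.1. Tgfb1 differed by 0.42, at 1.7 to 4.5 CPM against 1.4 to 2.2. Ntng2, at 0.76, lay between Gdf7 and Sema6a. None of the 3 was called against sham at a time point other than 28 dpi.

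The markers matched the cervical cord of the label, but these lists do not tell the laminae or the side apart. A gene without values may have been dropped as weakly expressed. All 5 cervical Hox genes had values, with a sum of 56.5 to 72.8 CPM at 28 dpi and 60 to 81.7 in sham animals, and none of the 3 lumbar Hox genes was among the genes with values. Of 4 forebrain genes 1 had values, at a sum of 0.8 to 2.3 CPM in these 2 groups. The 2 Schwann cell genes had none. Of 4 genes of sensory ganglion neurons 1 had values, Prph, which motor neurons also express, at 12.8 to 52.8 CPM in sham animals and 17.6 to 41.7 at 28 dpi. Motor neuron genes, 4 of 4 with values, summed to 56.6 to 212.2 CPM in sham animals and 96.7 to 190.5 at 28 dpi, and inhibitory neuron genes, 4 of 4, to 488.6 to 592.8 and 543.4 to 696.4. Of the 7 general neuron genes 1 was called as lower at 28 dpi and 0 as higher, and of the 5 oligodendrocyte genes 3 were called as lower. Of 6 astrocyte genes 1 was called as higher and 2 as lower, and 1 gene each of the inhibitory neuron, microglia (6), endothelium (3) and meningeal fibroblast (4) lists was called as higher and 0 as lower. Over all genes 11.9% were called as higher and 13% as lower in this comparison. In such dissected tissue fewer cells of a type and less RNA per cell cannot be told apart, and the part of cell composition in the netrin-G values was not tested.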

How the data were processed

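RNA of the intermediate laminae of C5/C6 was sequenced by the authors after ribosomal RNA depletion (TruSeq RNA v2, which does not keep strand, single-end reads). The authors assigned reads to mouse transcripts (mm10) with SALMON, summed them by gene with Tximport, normalized them with edgeR 3.14.0 (R 3.4.1) and dropped weakly expressed genes. Each deposited score is such a normalized CPM, rounded to 0.1. It is not a count, so count tests were not used and depth and counting error are unknown. Groups came from the sample labels, in which the sham group is named Ctrl.

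Values were analysed as log2(value + 0.5), a scale that understates changes of low genes. One mean per group was fitted over 29 animals with limma 3.58.1 (R 4.3.3, moderated test with a mean-dependent prior), Benjamini-Hochberg adjusted across all 16995 genes, at a limit of 0.05. The script was tested on simulated data. All comparisons with sham share the 5 sham animals. Log2 ratios were compared with two-sided exact permutation tests over 13 comparisons (Python 3.11.15, scipy 1.17.1). Likeness was Pearson's r over 29 animals among the 15497 genes with a mean value of at least 1. Positions are those of the deposited table, with exons and sequences from GENCODE M21 (16919 genes matched). Dlg2 has 2 rows, of which the first was used.

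The members, lists and tests were chosen with earlier results of these data known. Named are the 5 members, the 5 genes most like Ntng2 and the 3 most like each other member, at most 4 called genes per partner list, and Ptprf, Ptprd, Ptprs and Dlg4. Genes of the overlap and of ribosomal RNA were added after their values were seen, as was the alternative without animals above 200000 CPM of Rn18s-rs5. Of these, 1 gene near Ntng1 and 1 gene of the partner lists are not reported here, and the list's counts leave it out. Promoter and protein sequences were not used here.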

Additional observations from a re-analysis of the deposited data

Results flagged for a closer look

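Of 48 sets of values tested for a single distant animal (5 genes and 3 ratios in 6 groups), 1 stood out, where chance gives about 1 in 20. In the 42 dpi group the lowest Ntng2 value was 6.7 CPM, in animal A1-1, and the next was 8.7. The gap was 0.741 of the group's range, above the critical value of 0.71 for 5 animals. The same animal was also the lowest of the group for Ntng1 (30.5), Lrrc4 (25.0) and Lrrc4b (102.4) but not for Lrrc4c (54.1), and its Rn18s-rs5 value was 282927, inside the range of the group.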

How the results depend on the processing

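Values are log2 differences. Of 577 values from alternatives over 61 results, 522 kept their direction and their side of the limit (a count of genes, within 1.5 times; a value without a test, within 1 SD), and the 55 others follow, named by the groups compared. The causes were not tested, except that rescaling to the same sum lowers every gene of an animal with much ribosomal RNA. With 18S ribosomal RNA as a covariate, Lrrc4 was -0.030 (14 dpi versus 4 dpi), -0.011 (28 dpi versus 14 dpi) and -0.00992 (42 dpi versus sham) and Lrrc4c was -0.037 (14 dpi versus sham), -0.089 (28 dpi versus sham) and -0.00934 (42 dpi versus sham). Ntng1 was -0.00846 (14 dpi versus 4 dpi) and 0.19 (28 dpi versus sham) and the number of partner genes called at 28 dpi was 0. After correction for transcript length and GC content, Lrrc4b was 0.00302 (28 dpi versus sham) and 0.014 (42 dpi versus 14 dpi) and Lrrc4c was -0.00324 (28 dpi versus sham). Ntng1 was -0.036 (28 dpi versus 14 dpi) and 0.14 (28 dpi versus sham) and Ntng2 was 0.092 (42 dpi versus 14 dpi). The ratio of Ntng2 to Ntng1 was 0.055 (42 dpi versus sham). With median centring, Lrrc4c was 0.021 (28 dpi versus 14 dpi). With just the 2 groups in the fit, Ntng1 was 0.21 (28 dpi versus sham) and the number of partner genes called at 28 dpi was 5. With quantile normalization, Lrrc4 was -0.00676 (14 dpi versus 4 dpi) and Lrrc4c was 0.014 (28 dpi versus 14 dpi). Ntng1 was -0.015 (14 dpi versus 4 dpi). With the same sum in every animal, Lrrc4 was -0.52 (14 dpi versus 4 dpi), -0.42 (14 dpi versus sham), -0.25 (28 dpi versus 14 dpi), -0.67 (28 dpi versus sham), 0.17 (42 dpi versus 28 dpi), -0.50 (42 dpi versus sham) and -0.00624 (7 dpi versus sham) and Lrrc4b was -0.23 (28 dpi versus 14 dpi), -0.82 (28 dpi versus sham) and 0.093 (42 dpi versus 28 dpi). Lrrc4c was -0.43 (14 dpi versus 4 dpi), -0.50 (14 dpi versus sham), -0.78 (28 dpi versus sham) and -0.48 (42 dpi versus sham) and Ntng1 was -0.53 (14 dpi versus 4 dpi), -0.38 (14 dpi versus sham), -0.19 (28 dpi versus 14 dpi), -0.57 (28 dpi versus sham) and -0.29 (42 dpi versus sham). Ntng2 was -0.28 (14 dpi versus sham), 0.00892 (28 dpi versus sham) and -0.35 (42 dpi versus sham) and the number of partner genes called at 28 dpi was 27. With the unit number as a random block, Ntng1 was 0.26 (42 dpi versus sham). Without the 8 animals above 200000 CPM of Rn18s-rs5, Lrrc4 was -0.00521 (14 dpi versus 4 dpi), -0.030 (28 dpi versus 14 dpi) and 0.014 (42 dpi versus 28 dpi) and Lrrc4c was -0.012 (14 dpi versus sham) and -0.18 (28 dpi versus sham). Ntng1 was -0.11 (28 dpi versus 14 dpi) and 0.043 (28 dpi versus sham) and Ntng2 was 0.050 (42 dpi versus 14 dpi). The number of partner genes called at 28 dpi was 0. When each animal was left out in turn, Lrrc4 ranged from -0.019 to 0.038 (14 dpi versus 4 dpi), from -0.029 to 0.051 (28 dpi versus 14 dpi). Lrrc4b ranged from -0.00502 to 0.063 (28 dpi versus 14 dpi), from -0.017 to 0.12 (4 dpi versus sham), from -0.049 to 0.016 (7 dpi versus sham). Lrrc4c ranged from -0.00746 to 0.057 (14 dpi versus sham), from -0.056 to 0.026 (28 dpi versus 14 dpi), from -0.033 to 0.049 (28 dpi versus sham), from -0.023 to 0.00677 (7 dpi versus sham). Ntng1 ranged from -0.026 to 0.032 (14 dpi versus 4 dpi), from 0.18 to 0.25 (28 dpi versus sham). Ntng2 ranged from -0.21 to 0.028 (14 dpi versus 4 dpi), from -0.14 to 0.098 (42 dpi versus 14 dpi). The ratio of Ntng2 to Lrrc4 ranged from -0.00656 to 0.20 (14 dpi versus sham), from 0.17 to 0.26 (7 dpi versus sham). The ratio of Ntng2 to Ntng1 ranged from -0.045 to 0.18 (14 dpi versus sham), from 0.14 to 0.23 (7 dpi versus sham). The number of partner genes called at 28 dpi ranged from 4 to 14. The Ntng2 difference at 28 dpi then ranged from 0.68 to 0.85 and its ratio to Ntng1 from 0.47 to 0.65. The number of genes called at 28 dpi was 4230, 2202 with just the 2 groups fitted, 11251 with the same sum, 0 with the 18S covariate and 5 without the animals high in Rn18s-rs5, and 2198 to 5030 when an animal was left out. Leaving out an animal gave 3 (A10-4) to 41 (A9-2) genes in place of 18 at 4 dpi, 1 to 8 in place of 5 at 7 dpi and 1 to 14 in place of 4 at 42 dpi. No paired analysis was possible because no replicate number occurs in more than 1 group, and of the unit numbers in the labels 1 alone is shared, by the 28 and 42 dpi groups, so the unit was used as a random block.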
